A study of Arabidopsis thaliana with 12 samples.

Results

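GH9B11 (AT2G44560), AT5G63390 and PRA1.B3 (AT5G05380) are 3 *Arabidopsis thaliana* genes of the cell wall and the secretory pathway, each measured by 1 probe of an expression array. The 3 probes were chosen by name, as the probes whose annotation gives 1 of these genes and no other, among 692 probes with 1 gene and 3439 probes in all. The genes themselves were picked from earlier results of these same samples, in which they differed between the groups, so their differences are given as a description without a test.

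The tested plants were the laf6 mutant, in ecotype Landsberg, dark adapted and then placed in normal light for 1 h (6 samples of total RNA). They were set against wild type plants of the same ecotype that were dark adapted only (6 samples). Per the labels, laf6 plants are without the transporter atABC1, and no allele, tissue or age is named. All plants had been dark adapted, and genotype and light changed together, so their effects cannot be told apart, and neither can fewer cells of a type and less RNA per cell. The labels do not say that the numbered samples came from separate plants, and the p-values below rest on a spread that may be purely technical.

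Plant cells are enclosed by a wall of cellulose fibres in a matrix of hemicellulose, pectin and glycoproteins. The matrix polysaccharides and the enzymes that reshape the wall are made or modified in the endoplasmic reticulum and the Golgi and travel to the surface in vesicles, whose identity and targeting are set by Rab GTPases. GH9B11 belongs to the GH9 endoglucanases, enzymes that cut beta-glucan chains such as cellulose from within. AT5G63390 is placed in the O-fucosyltransferase family, a group of glycosyltransferases of the secretory pathway. The family is named for the transfer of fucose, and the activity of AT5G63390 was not tested. PRA1.B3 is a prenylated Rab acceptor, a small membrane protein of a family that binds prenylated Rab GTPases.

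Intensities were deposited on a linear scale. Their sample medians ran from 0.161 to 0.170 in laf6, against 0.218 to 0.289 in wild type. Between 14.6% and 19.3% of the probes of a laf6 sample were listed at exactly 0, against 13.0% to 15.7% in wild type. The samples numbered 1 and 2, 3 and 4, and 5 and 6 of a group were averaged, which gave 3 replicates per group. The median probe differed between the groups by -0.54 on the log2 scale as deposited (laf6 minus wild type), by -0.08 after quantile normalisation and by 0.06 with each replicate centred on its median, and differences below are read against that shift. The number of samples limits the precision, and intensities of different probes are not compared as levels.

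GH9B11 was lower in laf6 after 1 h of light. Its intensity had a lowest value of 0.0642, a median of 0.0843 and a highest value of 0.134 in laf6, against 0.193, 0.234 and 0.477 in wild type. The groups did not overlap as deposited, and the wild type samples numbered 1 and 4 were the highest. The 3 replicates were at 0.0707, 0.105 and 0.0955 in laf6, against 0.326, 0.335 and 0.215 in wild type. The mean was 0.0904 ± 0.0177 in laf6 and 0.292 ± 0.0669 in wild type (SD, n = 3 replicates each), 3.23-fold lower in laf6. Across the array, 17.9% of all probes had laf6 samples entirely below the wild type samples as deposited, so this separation was common among probes.

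The gap of GH9B11 was smaller relative to the shift of the whole array. After quantile normalisation the log2 difference was -1.02 ± 0.20 (SE), which is 2.03-fold lower, and 444 of the 3439 probes had a more negative one. On that scale 7.73% of all probes had laf6 samples entirely below the wild type samples. The normalised log2 values of the 6 samples ran from -3.51 to -2.57 in laf6, against -2.84 to -1.54 in wild type. They therefore overlapped, since laf6 sample 4 lay above wild type sample 3. The share of probes dimmer than GH9B11 within each sample, which no scaling changes, had a median of 34.5% in laf6 (31.1% to 45%), against 50.1% in wild type (40.1% to 65.2%). The wild type samples of GH9B11 were spread over 2.47-fold from lowest to highest, and the laf6 samples over 2.08-fold.

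AT5G63390 was listed at 0 in all 6 laf6 samples and above 0 in all 6 wild type samples. The wild type samples had a lowest intensity of 0.138, a median of 0.175 and a highest of 0.236. The wild type replicates were at 0.179, 0.175 and 0.187, with a mean of 0.180 ± 0.00616 (SD, n = 3). Averaging narrowed this spread, since the SD over the 6 single wild type samples was 0.0369. No fold is given against a group listed at 0. The lowest value above 0 in a laf6 sample lay between 1.33e-05 and 0.000364, so 0 stands at the floor of the scale.

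A signal in every wild type sample beside 0 in every laf6 sample was uncommon on this array. AT5G63390 was picked for its difference in these samples, so this too is a description only. Of the 3439 probes, 11 (0.32%) were listed at 0 in all 6 laf6 samples and above 0 in all 6 wild type samples, and 0 (0.0%) showed the reverse pattern. Of these 11 probes, 2 had 1 gene, AT5G63390 and AT2G24810. The lowest wild type value of AT5G63390 was exceeded by that of 1 of the 11. There were 180 probes with a wild type mean within 10% of that of AT5G63390, this probe included. Of these, 3 were at 0 in all 6 laf6 samples and 144 were at 0 in none, and the median of their laf6 means was 0.111.

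PRA1.B3 was higher in laf6 after 1 h of light. Its intensity had a lowest value of 0.849, a median of 1.04 and a highest value of 1.24 in laf6, against 0.362, 0.671 and 0.806 in wild type. The groups did not overlap, and wild type sample 1 was the lowest of all. The 3 replicates were at 1.04, 1.17 and 0.880 in laf6, against 0.531, 0.763 and 0.627 in wild type. The mean was 1.03 ± 0.143 in laf6 and 0.640 ± 0.117 in wild type (SD, n = 3 replicates each), a ratio of 1.60 as deposited. As deposited, 4.54% of all probes had laf6 samples entirely above the wild type samples, and 7.97% did after quantile normalisation. PRA1.B3 was picked for its difference in these samples, so its separation is a description only.

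**Figure D1:**
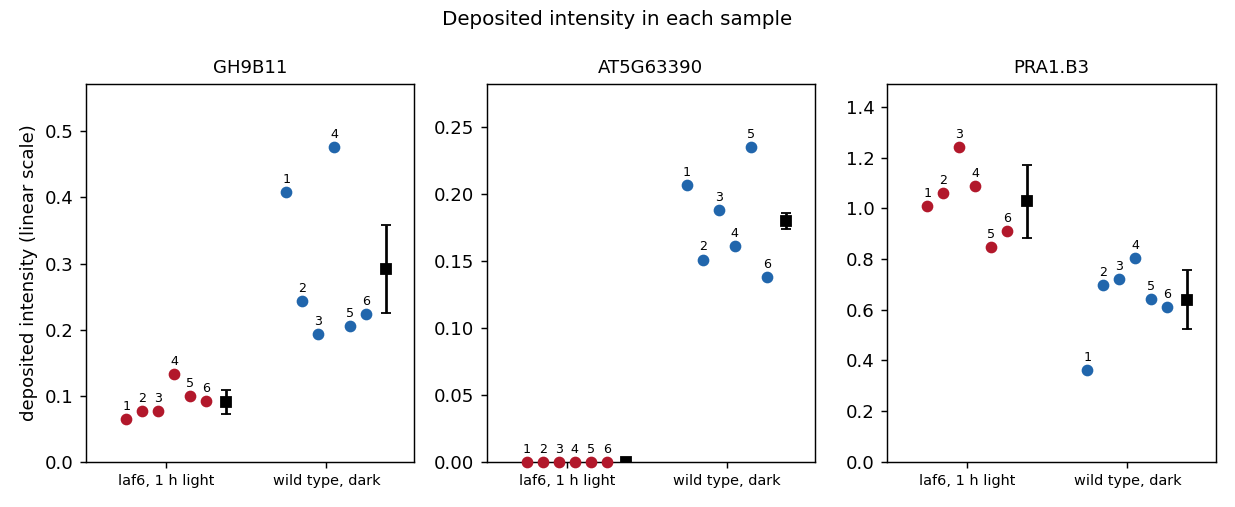
Deposited intensity (linear scale, each vertical axis from 0) of GH9B11, AT5G63390 and PRA1.B3 in the 6 laf6 samples after 1 h of light (red) and the 6 dark-adapted wild type samples (blue). Points carry the sample number, and black squares with bars are the mean and SD of the 3 replicates. GH9B11 reaches 0.134 in laf6 and starts at 0.193 in wild type, AT5G63390 is at 0 in all 6 laf6 samples, and PRA1.B3 starts at 0.849 in laf6 and reaches 0.806 in wild type.

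Because the array as a whole was dimmer in laf6, normalisation widened the difference of PRA1.B3. The log2 difference was 1.01 ± 0.17 (SE) after quantile normalisation, which is 2.01-fold, and 0.69 as deposited. Of the 3439 probes, 540 had a larger normalised difference and 427 a larger one as deposited. The share of probes dimmer than PRA1.B3 within each sample had a median of 88.9% in laf6 (87.2% to 90.4%), against 79.3% in wild type (61.6% to 80.9%), without overlap. The lowest wild type position was that of sample 1, and the other 5 wild type samples lay between 77.9% and 80.9%.

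**Figure D2:**
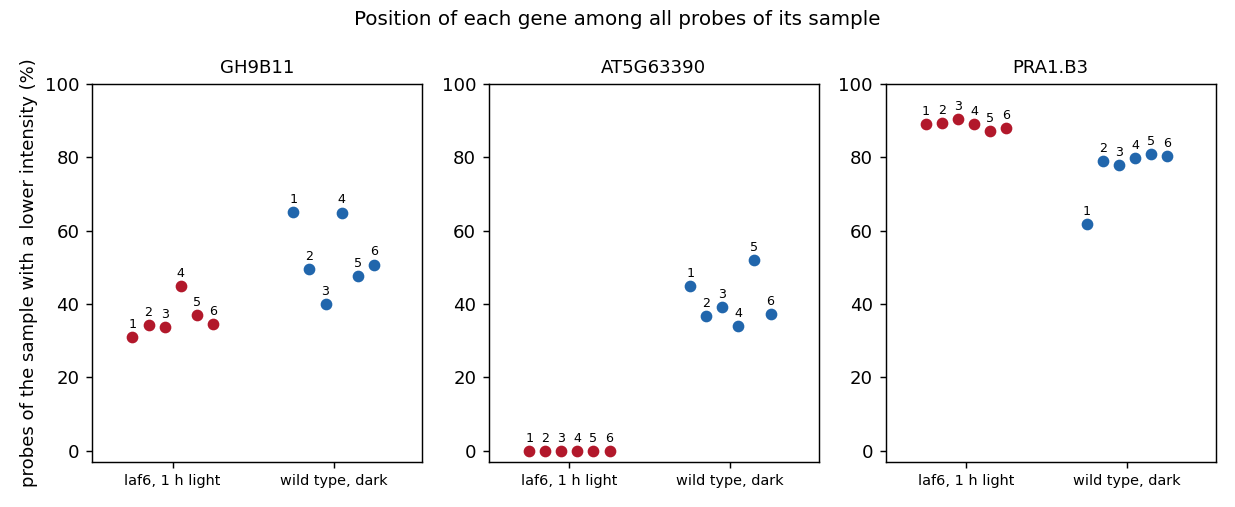
Percent of the 3439 probes of a sample with a lower intensity than GH9B11, AT5G63390 or PRA1.B3, for the 6 laf6 samples (red) and the 6 wild type samples (blue), with the sample number beside each point. GH9B11 overlaps between the groups on this scale (up to 45% in laf6, from 40.1% in wild type), while PRA1.B3 lies from 87.2% in laf6 and up to 80.9% in wild type.

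The size of each difference depended on the scaling, and its direction did not under the 3 scalings compared. GH9B11 had a log2 difference of -1.68 as deposited, -1.02 after quantile normalisation and -1.08 with replicates centred on their medians. PRA1.B3 had 0.69, 1.01 and 1.29 in the same order.

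**Figure D3:**
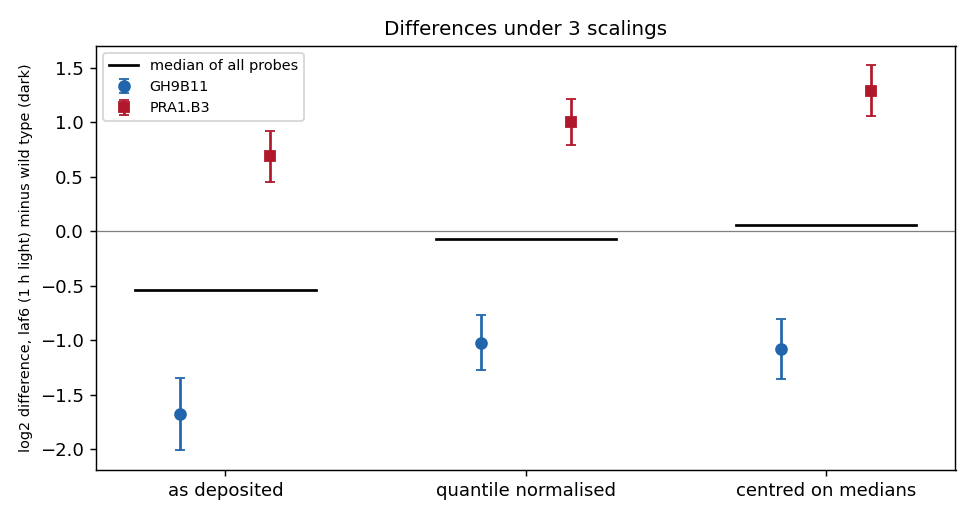
Log2 difference, laf6 after 1 h of light minus dark-adapted wild type, of GH9B11 (blue circles) and PRA1.B3 (red squares) under 3 scalings. Bars are the SD of replicates within a group (3 replicates each, pooled over both groups) and black lines are the median of all probes. GH9B11 lies below that median and PRA1.B3 above it under each scaling.

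For the array as a whole, limma called 335 of 3439 probes (9.74%) at an adjusted p under 0.05 after quantile normalisation, 189 higher (5.5%) and 146 lower (4.25%) in laf6. Without normalisation it called 476 (13.8%), of which 114 were higher (3.31%) and 362 lower (10.5%). Centring each replicate on its median gave 209 higher and 45 lower. With the replicate number as a block it called 12 (0.349%), 3 higher (0.0872%) and 9 lower (0.262%). The block together with a pseudocount, in place of zeros set to a floor, gave 174 higher and 121 lower. These shares are the background for the listed genes, and nothing is read from them for GH9B11, AT5G63390 and PRA1.B3.

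Each of the 3 genes also appears on a probe that the annotation gives to several genes, which cannot be assigned to any 1 of them. For AT5G63390 that probe, shared with AT2G44500 and AT3G07900, was lower in laf6 as well. Its intensity had a lowest value of 0.426, a median of 0.501 and a highest of 0.693 in laf6, against 1.23, 1.41 and 1.70 in wild type, without overlap. As deposited 17.9% of all probes had laf6 samples entirely below the wild type samples, and 7.73% did after quantile normalisation. The mean of the shared probe was 2.74-fold lower in laf6 as deposited, with a normalised log2 difference of -1.16. It was at 0 in no sample, unlike the probe of AT5G63390 alone.

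For GH9B11, the shared probe covers GH9B9, GH9B10, GH9B11 and GH9B12, which follow each other without a gene between them in the TAIR10.1 gene order. It was at 0 in 4 of 6 laf6 samples, with a highest value of 0.0388, and in 0 of 6 wild type samples, where the lowest value was 0.0548 and the highest 0.278. As deposited the groups of this shared probe did not overlap, as for 17.9% of all probes. After normalisation they did, with laf6 sample 3 at -4.55 and wild type sample 6 at -5.18 on the log2 scale.

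For PRA1.B3, the shared probe was lower in laf6 as deposited. The probe given to PRA1.B1, PRA1.B2 and PRA1.B3 together had a lowest intensity of 0.253, a median of 0.371 and a highest of 0.470 in laf6, against 0.425, 0.605 and 0.759 in wild type. It was lower in laf6 in all 6 same-numbered pairs, by a ratio of 0.575 to 0.626, whereas the probe of PRA1.B3 alone had ratios of 1.32 to 2.79. Its normalised log2 difference was -0.31 ± 0.24 (SE), against 1.01 for PRA1.B3 alone, and it was -0.13 with replicates centred on their medians. The mean ratio of this shared probe, 0.606 as deposited, lay near the array median of 0.669, and no direction beyond the array shift is read from it. Another probe, of PRA1.B1 and PRA1.B2 without PRA1.B3, had 0.551, 0.884 and 1.14 in laf6, against 0.904, 1.26 and 1.74 in wild type. Its normalised log2 difference was -0.35 ± 0.28 (SE, limma adjusted p = 0.504), and with replicates centred on their medians it was -0.0058 (limma adjusted p = 0.994), so no direction was established for it. What each probe hybridises to was not tested.

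Among the other PRA1 genes, PRA1.B6 (AT5G07110) was the 1 with a probe of its own, of 19 loci in the family. PRA1.B6 had a lowest intensity of 5.37, a median of 5.89 and a highest of 7.08 in laf6, against 3.52, 4.27 and 4.65 in wild type. The groups did not overlap, as for 4.54% of all probes in this direction as deposited and 7.97% after quantile normalisation. The same-numbered ratios of PRA1.B6 ran from 1.24 to 1.61. In limma its log2 difference was 0.56 ± 0.20 (SE) with an adjusted p of 0.170 over all probes, so it was not called. Of 14 other settings, limma called it in 2, with replicates centred on their medians (log2 difference 1.15, adjusted p = 0.0465) and with the 12 samples unaveraged (adjusted p = 0.00797), and its highest adjusted p was 0.314. Of 3 shared PRA1 probes without PRA1.B3, limma called 0 after normalisation. All 3 had a negative normalised difference, with a median of -0.35, where the median of all probes was also negative, at -0.08. Without normalisation limma called 2 of the 3 lower in laf6, the probe of PRA1.B4 and PRA1.B5 (log2 difference -0.68, adjusted p = 0.0327) and that of PRA1.G1 and PRA1.G2 (-1.22, adjusted p = 0.0412). On that scale limma called 10.5% of all probes lower, and the median probe was at -0.54. After normalisation the PRA1.B4 and PRA1.B5 probe had a log2 difference of -0.18 (limma adjusted p = 0.574). The probe of PRA1.G1 and PRA1.G2 was also called with the samples unaveraged (limma adjusted p = 0.0306).

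Of the 25 GH9 loci, GH9B8, GH9B12 and GH9B16 also had a probe of their own, and limma called 0 of these 3. Their median log2 difference was -0.84 after normalisation and -1.44 as deposited, where all probes had -0.08 and -0.54. All 3 were negative, but GH9B8, at -0.09 after normalisation, lay near the array median. The difference of GH9B12, -1.27, depends on the floor set for zeros, and it was -0.37 with a pseudocount. No direction of the family is read from 3 genes. GH9B16 had a lowest intensity of 0.0677, a median of 0.111 and a highest of 0.223 in laf6, against 0.219, 0.345 and 0.429 in wild type. The groups of GH9B16 met only at laf6 sample 6 and wild type sample 6, and its normalised log2 difference was -0.84 ± 0.29 (SE, limma adjusted p = 0.164).

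GH9B12, the neighbour of GH9B11 in the gene order, was listed at 0 in 2 laf6 samples and 1 wild type sample. Its highest value was 0.104 in laf6 and 0.207 in wild type, and the groups overlapped. GH9B8 ran from 0.0469 to 0.212 in laf6 and from 0.132 to 0.433 in wild type, with a normalised log2 difference of -0.09 ± 0.35 (SE, limma adjusted p = 0.920). The sign of GH9B8 changed when 1 replicate was left out, to 0.10 without laf6 replicate 1 and to 0.22 without wild type replicate 2.

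Probes shared among GH9 genes other than GH9B11 numbered 5, too few to set against the 4.25% of all probes called lower in laf6. Limma called 1 of the 5, lower in laf6. That probe, given to GH9B14 and GH9B15, had a lowest intensity of 0.244, a median of 0.352 and a highest of 0.476 in laf6, against 0.616, 0.780 and 1.02 in wild type. Its normalised log2 difference was -0.80 ± 0.14 (SE) with a limma adjusted p of 0.0407, and of 0.110 with the replicate number as a block. With replicates centred on their medians the call was lost as well (log2 difference -0.59, limma adjusted p = 0.136). It was not called either with any 1 replicate left out (adjusted p from 0.0688 to 0.120). A second probe of the same pair of genes was listed at 0 in samples 1 and 2 of both groups and in sample 4 of laf6, and limma did not call it (adjusted p = 0.953). The probe of GH9B16, GH9B17 and GH9B18 ran from 0.110 to 0.247 in laf6, against 0.332 to 0.509 in wild type. As deposited its groups did not overlap, as for 17.9% of all probes in this direction. After normalisation they did, with laf6 sample 6 at -1.75 and wild type sample 2 at -1.85 on the log2 scale. The normalised log2 difference of this probe was -0.83 ± 0.28 (SE, limma adjusted p = 0.151). It was called without normalisation (log2 difference -1.38, limma adjusted p = 0.0473), where 10.5% of all probes were called lower. It was also called with the samples unaveraged (limma adjusted p = 0.0199).

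**Figure D4:**
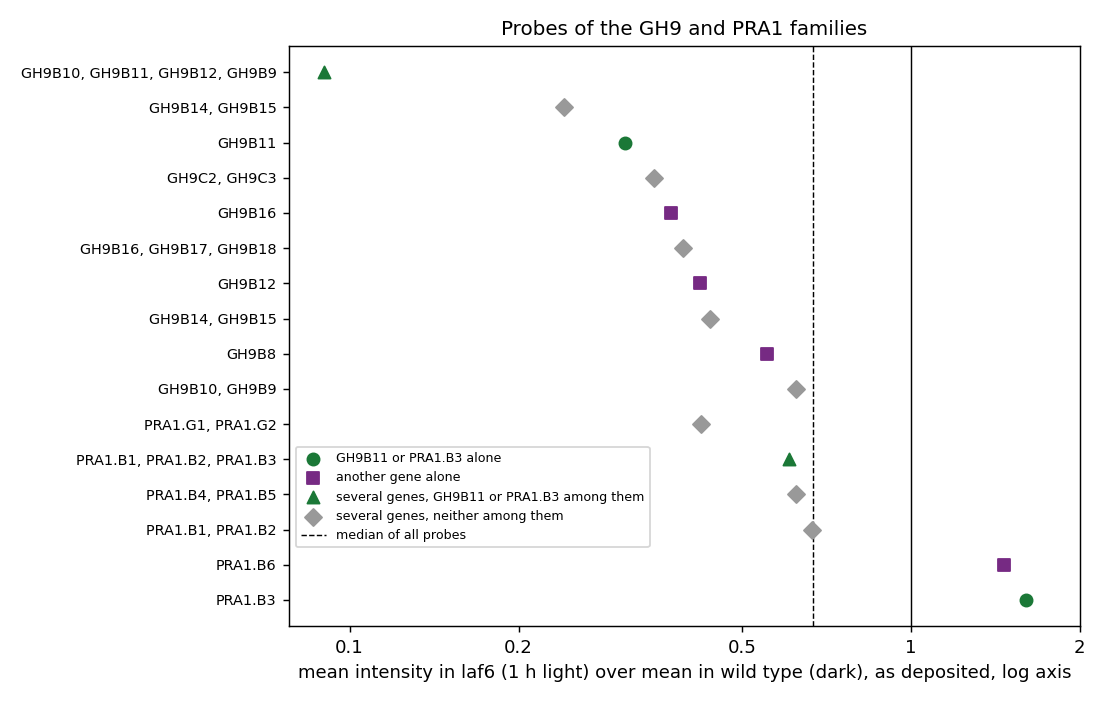
Mean intensity in laf6 after 1 h of light over the mean in dark-adapted wild type, as deposited (log axis), for probes of the GH9 family (upper rows) and the PRA1 family (lower rows). Marker shapes tell probes of 1 gene from probes of several, the solid line is a ratio of 1 and the dashed line the median, 0.669, of the 3292 probes with a wild type mean above 0. PRA1.B3 (1.60) and PRA1.B6 (1.47) lie right of 1. The other PRA1 probes and all GH9 probes shown lie left of it, as the array median does. A place left of 1 does not by itself show a decrease beyond the array shift, and some of these probes lie near the dashed line.

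Few other genes of the wall or of vesicle traffic had a probe of their own. CSLA01, of the cellulose synthase-like A family that makes mannans, ran from 0.00185 to 0.0629 in laf6 and from 0.0100 to 0.0978 in wild type, with overlapping groups (limma adjusted p = 0.575). CKS, which activates the sugar KDO for rhamnogalacturonan II pectin, was listed at 0 in all 12 samples. MON1 (AT2G28390), which acts in traffic to the vacuole, had a median of 0.353 in laf6 and 0.584 in wild type, with a normalised log2 difference of -0.21 ± 0.18 (SE, limma adjusted p = 0.529).

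RALFL32, of a family of secreted signalling peptides, was at 0 in 4 of 6 laf6 samples, with a highest value of 0.0106, and ran from 0.0719 to 0.167 in wild type. The groups did not overlap, as for 17.9% of all probes in this direction as deposited and 7.73% after quantile normalisation. Limma did not call RALFL32 (adjusted p = 0.172). Its fitted difference depends on the floor set for zeros, and a pseudocount instead of that floor gave a log2 difference of -1.28 (limma adjusted p = 0.0141, and 0.00461 to 0.310 over 13 other settings). In the planned fit limma thus called 0 of the 8 other listed genes, against 9.74% of all probes. An unadjusted p under 0.05 was reached by 3 of the 8 in limma. Nothing is read from that count, since the share of all probes at that threshold is not given. CKS, at 0 in every sample, could not be called. With so few genes, a count of 0 does not set them apart from the share over all probes. The median normalised log2 difference of the 8 was -0.41, against -0.08 for all probes, and no direction is read from it. Of loci annotated as O-fucosyltransferases, other glycosyltransferases or vesicle traffic proteins in the gene table, 0 matched a probe of 1 gene. That table gives no description for AT5G63390 itself, so other members of these families may have been missed.

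The single-gene probes most like each of the 3 were sought by the root mean square distance between centred log2 values over the 12 samples, among 689 probes. Nearest to GH9B11 were AT5G56070 at a distance of 0.33, AT2G30320 at 0.35 and CCL at 0.35. AT5G56070 had 0.160 to 0.267 in laf6, against 0.473 to 0.880 in wild type. Nearest to PRA1.B3 were AT1G15140 at 0.23, AT2G46630 at 0.28 and AT1G69910 at 0.32.

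AT5G63390 had no close neighbour on this measure. AT2G24810, at a distance of 1.43, was also listed at 0 in all 6 laf6 samples, and had 0.0246 to 0.0844 in wild type. AT2G06040 and RALFL32 followed at 2.91 and 3.73, with 5 and 4 laf6 samples at 0. These distances depend on the floor set for values of 0.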

How the data were processed

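The authors deposited spot intensities for 3439 probes in 12 samples. Their background correction, scaling and array reading are not given in the sources used here. Probes were named through the platform annotation and the TAIR10.1 gene table, which matched 690 of 692 probes with 1 gene and was used for names and gene order only. Annotation gave several genes for 870 probes and none for 1877.

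Samples numbered 1 and 2, 3 and 4, and 5 and 6 of a group were averaged as intensities. Deviations from group means over 1387 probes with a mean above 0.3 correlated at 0.016 to 0.68 within these pairs and at -0.63 to 0.17 in the others, so the ranges overlapped. Same-numbered replicates of the 2 groups correlated at 0.55, 0.45 and 0.17 (all probes, 0.18, 0.10 and 0.17), which met the rule for taking the numbers as pairs. This rests on the values alone. The reported SEs and p-values come from the fit without a block, so they leave this pairing out. The paired fit was an alternative, and it called 12 probes (0.349%) against 335 (9.74%). With a pseudocount the paired fit called 174 higher and 121 lower.

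Zeros were replaced by the smallest intensity above 0 (1.33e-05), and all values were taken to log2, quantile normalised and tested with limma 3.58.1 in R 4.3.3, with Benjamini-Hochberg adjustment over all probes, a threshold of 0.05 and no block. The procedure was tested on simulated data. Members and lists were chosen with earlier results of these data known, and 3 genes (CKS, MON1 and RALFL32) and the shared probes were added after the probe names or values were read. Named genes are the 3 genes, every measured locus of their families and of the other lists, and the 3 nearest probes of each. Alternatives were other scalings, a pseudocount (25th percentile), leaving out the dimmest 25% of probes, trend and robust eBayes, the block, unaveraged samples and leaving out each replicate.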

Additional observations from a re-analysis of the deposited data

Results flagged for a closer look

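In 3 of 41 groups of 6 samples, 1 sample stood apart from the other 5 by more than the critical value of Dixon's test, which sets the gap to the nearest sample against the range of the group. Chance marks about 1 in 20 groups where values are independent and normally distributed. These are linear intensities, some of them at 0, from probes of the same samples, so that rate may not hold here. The highest wild type sample of GH9B8 was at 0.433, with the next at 0.218. The highest wild type sample of the probe shared by GH9B9, GH9B10, GH9B11 and GH9B12 was at 0.278, with the next at 0.130. The highest laf6 sample of RALFL32 was at 0.0106, with the next at 0.000272. In all 3 cases the sample was number 4 of its group.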

How the results depend on the processing

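The direction of GH9B11 and PRA1.B3 held in every setting run. All settings drew on the samples in which these genes were picked, so this is no independent support. GH9B11 had a log2 difference of -1.68 without normalisation and of -0.76 with the pseudocount, with or without the replicate block, and leaving out a replicate gave -1.17 to -0.87. PRA1.B3 had 0.69 without normalisation, 1.29 with replicates centred on their medians, and 0.86 to 1.12 on leaving out a replicate. The intensity difference of AT5G63390, -0.180 as deposited, ran from -0.183 to -0.177. Counts of calls over the array moved more. The 189 probes higher and 146 lower became 114 and 362 without normalisation, 45 lower with medians centred, 232 lower with trend and robust eBayes, 3 and 9 with the replicate block (174 and 121 with the block and the pseudocount), and 353 and 421 with the 12 samples unaveraged. Whichever of the 6 replicates was left out, the fit on fewer samples called 59 to 114 higher and 32 to 83 lower. Of the 8 other listed genes, 0 were called in the planned fit, 1 with medians centred (PRA1.B6), 1 with the pseudocount alone and 1 with the pseudocount and replicate block (RALFL32 in both), 3 with unaveraged samples, and 0 to 1 with a replicate left out (RALFL32, without laf6 replicate 3). Adding the shared probes made it 1, a choice made after seeing the data. The replicate block changed no call other than those of the array counts and of the GH9B14 and GH9B15 probe. Signs turned for 4 probes. CSLA01 had 0.91 unaveraged, GH9B8 ran from -0.27 to 0.22 and the GH9B9 and GH9B10 probe from -5.59 to 1.37 with a replicate left out, and the second GH9B14 and GH9B15 probe had 1.31 without the dimmest probes and -6.48 to 3.65 with a replicate left out. The cause was not tested. Values at 0 have no order.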

Other observations

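As deposited, sample 4 was also the highest of its group for GH9B11 in laf6 (0.134) and in wild type (0.477), for GH9B8 in both groups (0.212 in laf6, 0.433 in wild type) and for PRA1.B3 in wild type (0.806). After normalisation wild type sample 1 was marginally above sample 4 for GH9B11 and wild type sample 5 was the highest for PRA1.B3. Wild type sample 4 was the lowest of its group for the PRA1.B4 and PRA1.B5 probe (0.175). Sample 3, with which it was averaged, had 0.0764 for GH9B11 in laf6 and 0.193 in wild type. The replicate means of GH9B11 thus rest on readings that differed by more within this pair than the means differed from each other, and the labels do not say whether samples 3 and 4 are readings of the same RNA.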
